A study of Mus musculus with 12 samples.

Results

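The Ly49 receptors are encoded by the Klra genes, and 7 of them (Klra1, Klra2, Klra3, Klra4, Klra7, Klra8 and Klra9) were taken by name from the 54532 genes of the deposited count table. They were measured by bulk mRNA-seq in 12 intracranial B16-OVA melanoma tumors, 3 per group and each from a separate mouse. B16-OVA is a mouse melanoma line that expresses the model antigen ovalbumin, and all groups were wild type C57BL/6 mice of 6 to 10 weeks, male and female, that carried a flank tumor implanted 3 days before the brain tumor. In dNK tumors, NK cells had been depleted throughout with an antibody (anti-Asialo-GM2 in the submitters' design text, anti-Asialo-GM1 in the study's methods, 100 µg per dose), and the mice also received anti-PD-1 and anti-CTLA-4 antibodies (PC blockade, 200 µg each) on days 5 and 7 after intracranial implantation, as the design text has it (the study's methods give other days). CD8H and CD8L tumors came from mice on the same PC blockade without depletion and were divided by the study into those with high and low abundance of CD8+ T cells, so genes of T cells do not differ between them independently of the grouping. IgG tumors came from mice given control antibodies on the same days, and every tumor was isolated on day 8. Asialo-GM1 is also carried by cells other than NK cells, including some activated T cells. As each library is a whole tumor, fewer cells of a type and less RNA per cell cannot be told apart.

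Ly49 receptors are lectin-like proteins of the cell membrane through which mouse NK cells read MHC class I molecules on the cells they meet. Inhibitory members carry an immunoreceptor tyrosine-based inhibitory motif (ITIM) in the cytoplasmic tail and recruit phosphatases such as SHP-1 (Ptpn6), while activating members lack that motif and signal through the adaptor DAP12 (Tyrobp), which they hold by a charged residue in the membrane. Klra1 (Ly49A), Klra3 (Ly49C), Klra7 (Ly49G) and Klra9 (Ly49I) are inhibitory receptors of NK cells. Klra4 (Ly49D) and Klra8 (Ly49H) are the activating ones, and Ly49H is known for recognizing a protein of mouse cytomegalovirus. Klra2 (Ly49B) is an inhibitory member that is known from myeloid cells rather than NK cells.

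The coding starts are shown because they carry the difference between the inhibitory and the activating members. Each runs 5′ to 3′ over the first 45 coding bases of the GENCODE vM21 transcript (build GRCm38), and the capitals mark bases 16 to 33, counted from 1 at the A of the start codon, where the ITIM lies in the inhibitory genes.
Klra1: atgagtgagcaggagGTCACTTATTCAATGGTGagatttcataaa
Klra2: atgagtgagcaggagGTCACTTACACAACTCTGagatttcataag
Klra3: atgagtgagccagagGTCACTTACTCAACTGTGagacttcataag
Klra7: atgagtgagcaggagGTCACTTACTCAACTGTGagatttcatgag
Klra9: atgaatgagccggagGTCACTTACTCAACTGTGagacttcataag
Klra4: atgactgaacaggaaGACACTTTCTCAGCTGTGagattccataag
Klra8: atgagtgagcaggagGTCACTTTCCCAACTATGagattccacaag
The ITIM was found at this position in Klra1, Klra2, Klra3, Klra7 and Klra9 and not in Klra4 or Klra8. Bases 22 to 24 are a tyrosine codon in the first 5 genes and TTC in both activating genes. Set against Klra7, the substitutions within the marked bases are T17A, A23T and A28G in Klra4 and A23T, T25C and G31A in Klra8, with the Klra7 base written first.

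All 7 genes lie on the minus strand of chromosome 6 (GRCm38) among 14 rows of the table whose names start with Klra. In their order along the chromosome they are Klra4 (130043731 to 130067271), Klra8 (130115226 to 130129898), Klra9 (130178675 to 130193112), Klra7 (130218605 to 130233322), Klra3 (130323289 to 130337574), Klra1 (130363917 to 130386874) and, apart from that group, Klra2 (131219223 to 131247362). Identity of their coding sequences was between 71.5% (Klra2 and Klra8) and 95.9% (Klra3 and Klra9), so the split of reads among members is uncertain. Of all 100-base windows of the transcript, 14.4% in Klra8 were found unchanged in another gene, nearly all of them in the pseudogene Klra14-ps (13.7%). The share was 4.41% in Klra9, 2.36% in Klra7 and 1.93% in Klra3, and 0 in Klra1, Klra2 and Klra4.

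Total counts per library were between 16336993 and 26416214, and all 7 members were among the 17320 genes that passed the filter on low counts. Klra1 and Klra3 passed it only through the CD8H tumors: all 3 of these reached the level asked for (0.496 CPM in 3 tumors), but only 1 of the 9 other tumors did for Klra1 and 2 for Klra3. Values are given as reads per gene and as CPM (reads scaled to the library total, after TMM scaling between libraries). A gene counted as changed when edgeR's quasi-likelihood test gave it a Benjamini-Hochberg adjusted p of 0.05 or less over these genes. Summed CPM of 4 NK cell markers (Ncr1, Klrb1c, Eomes and Klrd1) was 0.788 to 1.25 in dNK tumors, 23.8 to 54.1 in CD8H tumors, 3.61 to 10.4 in CD8L tumors and 6.85 to 14.5 in IgG tumors. Klrd1, which T cells also express, had the largest CD8H mean of the 4, at 25.4 against 3.54 for the IgG group. The CD8H and IgG means lay closer for Ncr1 (2.62 against 1.95), Klrb1c (2.82 against 2.50) and Eomes (4.31 against 1.85). Between these groups edgeR called none of the 4, where 0.745% of all genes were called in either direction. Whether CD8H tumors held more NK cells was not tested. For 8 T cell markers the sums were 0.727 to 7.41 in dNK tumors, 141.9 to 396 in CD8H tumors, 8.56 to 36.2 in CD8L tumors and 23.4 to 35.2 in IgG tumors. Genes of the melanocyte lineage (6, Pmel among them) summed to 19628 to 22245 CPM in dNK tumors, 8423 to 15879 in CD8H tumors, 18622 to 24403 in CD8L tumors and 16881 to 19276 in IgG tumors. The parts that T cells and other cells took in the differences below were not tested.

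Transcripts of the 6 Ly49 genes other than Klra2 were close to absent from dNK tumors. Together they gave 12 reads over the 3 dNK tumors and 1497 reads over the 9 other tumors, a level 38.5 times higher in those 9 at equal depth (exact 95% interval 22.0 to 74.6, counting error only). Klra2 kept 123 reads in dNK tumors, against 2078 in the 9 others, which was 5.21 times higher at equal depth (4.34 to 6.30). The sum of the 6 genes was 6, 0 and 6 reads in dNK tumors 1, 2 and 3, and no other tumor had fewer than 33. In 6 of the 7 genes, all but Klra3, each dNK tumor was below each of the 9 other tumors, as was the case for 4.32% of all genes tested. Of these 6, Klra1 had passed the filter on low counts only through the CD8H tumors.

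**Figure D1:**
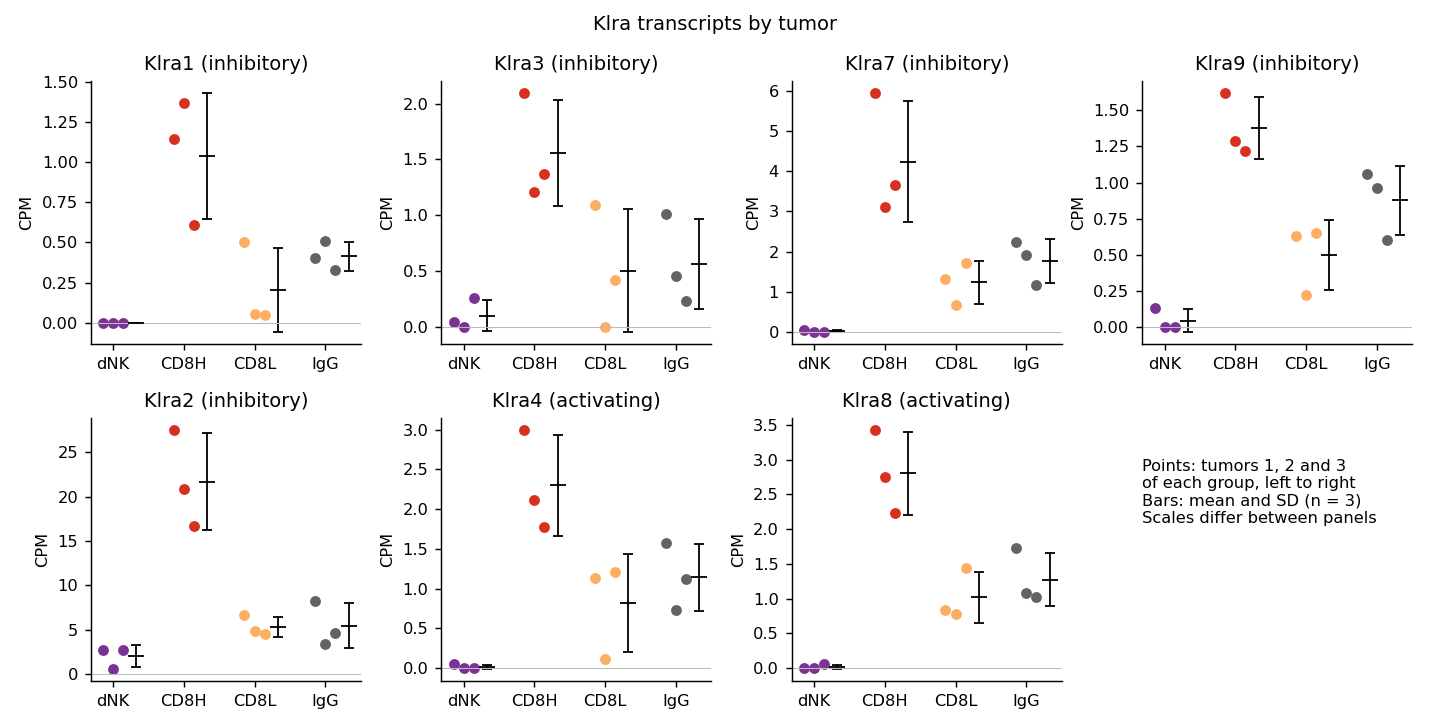
CPM of each Klra gene (vertical axis, a separate scale per panel) in the 3 tumors of the dNK, CD8H, CD8L and IgG groups, with the mean and SD beside them. Klra7 is between 0 and 0.0455 CPM in dNK tumors and between 3.12 and 5.95 CPM in CD8H tumors, while Klra2 is above 0 in each dNK tumor.

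Among the inhibitory genes, Klra7 had 1, 0 and 0 reads in dNK tumors, 125, 75 and 72 in CD8H tumors, 31, 12 and 37 in CD8L tumors and 44, 34 and 25 in IgG tumors. In CPM this was 0.0455, 0 and 0 in dNK tumors, 5.95, 3.12 and 3.65 in CD8H tumors, 1.30, 0.667 and 1.72 in CD8L tumors and 2.23, 1.92 and 1.17 in IgG tumors. The dNK tumors lay below and the CD8H tumors above all others, and CD8L and IgG tumors overlapped. Klra1 had no read in any dNK tumor, against 24, 33 and 12 in CD8H tumors, 12, 1 and 1 in CD8L tumors and 8, 9 and 7 in IgG tumors. CD8L tumors 2 and 3 were thus near the dNK tumors for Klra1, and CD8L tumor 1 was within the range of the CD8H tumors in reads, but not in CPM (0.505 in that tumor, against 0.609 to 1.37 in CD8H tumors).

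Klra9 had 3, 0 and 0 reads in dNK tumors, 34, 31 and 24 in CD8H tumors, 15, 4 and 14 in CD8L tumors and 21, 17 and 13 in IgG tumors. Its CPM was 0.136, 0 and 0 in dNK tumors, 1.62, 1.29 and 1.22 in CD8H tumors, 0.631, 0.222 and 0.651 in CD8L tumors and 1.06, 0.962 and 0.606 in IgG tumors, with the dNK group apart at the low end and the CD8H group apart at the high end. Klra3, whose product recognizes H2-K molecules, was the exception among the NK cell members. It had 1, 0 and 5 reads in dNK tumors, 44, 29 and 27 in CD8H tumors, 26, 0 and 9 in CD8L tumors and 20, 8 and 5 in IgG tumors. In CPM, dNK tumor 3 (0.261) was above CD8L tumor 2 (0) and IgG tumor 3 (0.233), so that these groups overlapped, while the CD8H tumors (1.20 to 2.10) were above all others.

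The activating genes followed the same order. Klra8 had 0, 0 and 1 reads in dNK tumors, 72, 66 and 44 in CD8H tumors, 20, 14 and 31 in CD8L tumors and 34, 19 and 22 in IgG tumors. This gave 0, 0 and 0.0521 CPM in dNK tumors, 3.43, 2.74 and 2.23 in CD8H tumors, 0.842, 0.778 and 1.44 in CD8L tumors and 1.72, 1.08 and 1.03 in IgG tumors. No dNK tumor reached any other tumor, and no other tumor reached the CD8H range. Klra4 had 1, 0 and 0 reads in dNK tumors, 63, 51 and 35 in CD8H tumors, 27, 2 and 26 in CD8L tumors and 31, 13 and 24 in IgG tumors. CD8L tumor 2 stood apart from the other CD8L tumors for Klra4, at 0.111 CPM against 1.14 and 1.21. The same tumor gave 33 reads over the 6 genes, where CD8L tumors 1 and 3 gave 131 and 118.

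Klra2 had by far the most reads of the family, 60, 10 and 53 in dNK tumors, 578, 501 and 329 in CD8H tumors, 158, 88 and 98 in CD8L tumors and 164, 61 and 101 in IgG tumors. Its CPM was 2.73, 0.606 and 2.76 in dNK tumors, 27.5, 20.8 and 16.7 in CD8H tumors, 6.65, 4.89 and 4.55 in CD8L tumors and 8.30, 3.45 and 4.71 in IgG tumors. The groups stood in the same order, but dNK tumors 1 and 3 came close to IgG tumor 2. Summed CPM of 10 markers of macrophages and microglia was 160.9 to 454.4 in dNK tumors, 995 to 1533 in CD8H tumors, 369.3 to 692.3 in CD8L tumors and 531.6 to 902.9 in IgG tumors. This sum moved in the same direction as Klra2, as did the sums of T cell and NK cell markers given above.

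On the authors' FPKM, which is per length, Klra2 led the family in CD8H tumors with 15.1 ± 3.30 (SD, n = 3). Klra7 followed with 4.17 ± 1.28, then Klra8 with 2.43 ± 0.447, Klra4 with 1.89 ± 0.445, Klra3 with 1.43 ± 0.366, Klra9 with 1.17 ± 0.137 and Klra1 with 1.00 ± 0.394. On these values the ranges of Klra2, Klra7 and Klra8 did not overlap in CD8H tumors, whereas each neighbouring pair from Klra8 down to Klra1 did. The FPKM exceeded reads scaled by listed length and library total by 1.00 to 1.64 times, unequally between genes. Gaps between genes, such as that between Klra7 and Klra8, therefore depend on the length used. In CD8L tumors the order was Klra2 (3.56 ± 0.456), Klra7 (1.17 ± 0.551), Klra8 (0.861 ± 0.365), Klra4 (0.642 ± 0.489), Klra3 (0.427 ± 0.444), Klra9 (0.408 ± 0.200) and Klra1 (0.173 ± 0.216). In IgG tumors the order was Klra2 (3.84 ± 1.76), Klra7 (1.76 ± 0.559), Klra8 (1.11 ± 0.341), Klra4 (0.938 ± 0.341), Klra9 (0.751 ± 0.213), Klra3 (0.524 ± 0.373) and Klra1 (0.396 ± 0.0941). In both of these groups Klra2 was apart from Klra7, and every neighbouring pair from Klra7 down overlapped. In dNK tumors Klra2 was at 1.33 ± 0.787 FPKM, and the other 6 genes together were at 0.163 ± 0.143.

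**Figure D2:**
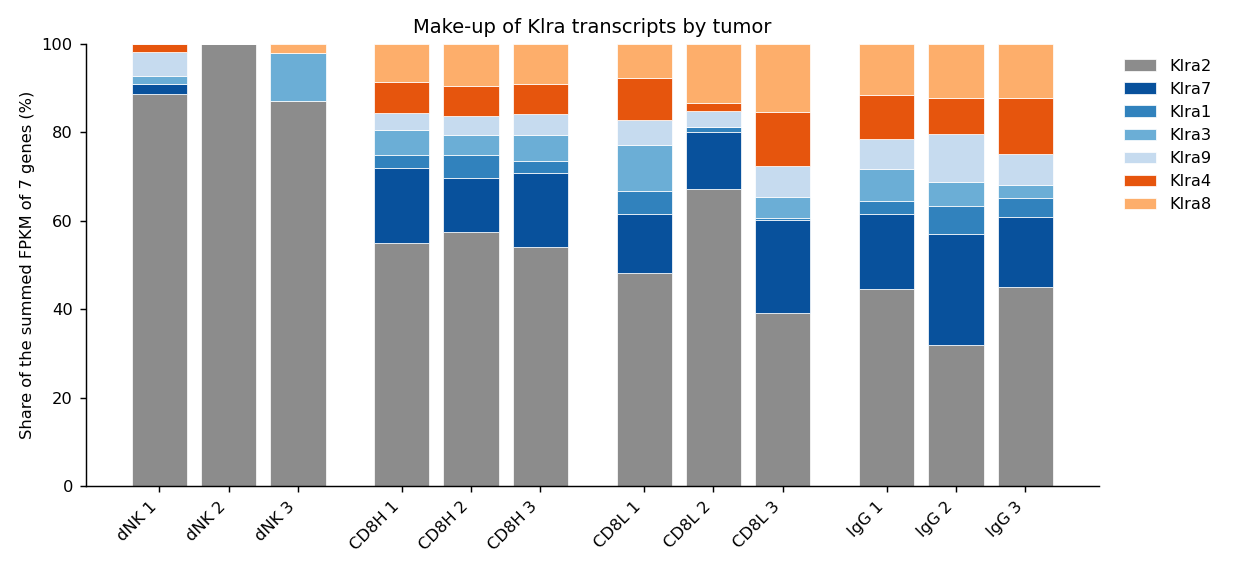
Share of each Klra gene in the summed FPKM of the 7 genes (vertical axis, percent) for each tumor of the dNK, CD8H, CD8L and IgG groups. Klra2, in gray, makes up 87.1% to 100% in dNK tumors, 54.1% to 57.6% in CD8H tumors, 39.2% to 67.2% in CD8L tumors and 31.8% to 45.1% in IgG tumors, and the activating genes are in orange.

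The groups differed in the share that Klra2 took of the family. Its part of the family's reads was 90.9%, 100% and 89.8% in dNK tumors, 61.5%, 63.7% and 60.6% in CD8H tumors, 54.7%, 72.7% and 45.4% in CD8L tumors and 50.9%, 37.9% and 51.3% in IgG tumors. The dNK tumors lay above all others, each CD8H tumor lay above each IgG tumor, and CD8L tumors spanned both. Within the other 6 genes, the activating Klra4 and Klra8 made up 38.4% of the reads in CD8H tumors (Clopper-Pearson 95% interval 35.2 to 41.8, counting error only), 42.6% in CD8L tumors (36.7 to 48.6) and 40.4% in IgG tumors (35.2 to 45.7). These intervals overlapped, and the 2 of 12 reads in dNK tumors allow a share between 2.09% and 48.4%.

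Whether NK cell depletion within PC blockade lowered these transcripts was tested against the mean of the CD8L and CD8H groups. In edgeR, 6 of the 7 genes fell, where 6.99% of all genes were called lower. The adjusted p of the 6 was between 0.00871 (Klra7 and Klra8) and 0.0242 (Klra1), and Klra3 missed the threshold (adjusted p = 0.108). Klra1 and Klra3 had passed the filter on low counts only through the CD8H tumors. Without that filter edgeR called the same 6 genes (4.28% of 33667 genes in either direction). Klra2 fell by 2.40 ± 0.48 on the log2 scale (SE, adjusted p = 0.0161). For the other genes the fitted change rests on 0 to 6 reads in the dNK group and is no bound. Of all genes tested, Klra8 and Klra7 had the 3rd and 4th smallest p. Without single libraries the count was 4 to 7, and Klra1 lost its call without any one of the 3 dNK tumors (adjusted p 0.0648 to 0.0711) and on the compared libraries alone (0.0648), as Klra9 did without dNK tumor 2 (0.0526). Over all genes these fits called 580 to 940 in either direction, against 1750 in the main fit.

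Each of the pairs was then tested, all with the same dNK tumors. Against CD8H tumors, all 7 genes were called lower by edgeR, where 15.7% of all genes were, with adjusted p between 0.000923 (Klra7 and Klra8) and 0.0335 (Klra3). Klra1 and Klra3 could enter this test only by being high in CD8H tumors. Without a filter on low counts the 7 genes were called as well (13.5% of 33667 genes in either direction). At equal depth, CD8H tumors held 242.1 times the Klra7 reads of dNK tumors (exact 95% interval 43.1 to 9597), 162.0 times the Klra8 reads (28.7 to 6433), at least 20.5 times the Klra1 reads (with 0 in the dNK group set to 3) and 10.2 times the Klra2 reads (8.47 to 12.4). These intervals hold counting error only and not the spread between tumors. The call of Klra3 was lost without dNK tumor 1 or 2 or any one CD8H tumor (adjusted p 0.0535 to 0.113). Over all genes these fits called 3202 to 6206 in either direction, against 5250 with all libraries.

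Against IgG tumors, edgeR called 3 of 17320 genes, all lower in dNK tumors (0.0173%), and 2 of the 3 were Klra7 and Klra8 (adjusted p = 0.0407 for each, the third being Scin). Reads in IgG tumors were 100.9 times those in dNK tumors for Klra7 (exact 95% interval 17.7 to 4022) and 73.4 times for Klra8 (12.8 to 2939), counting error only. Klra2 was 2.60 times higher in IgG tumors (2.10 to 3.22, counting error only) and was not called (edgeR adjusted p = 0.262). Both calls were lost without any one of 10 of the 12 libraries, that is all but CD8L tumors 2 and 3, with adjusted p then between 0.0869 and 0.293. In each of those fits edgeR called no gene at all. On library totals without TMM no gene was called either (edgeR adjusted p = 0.0509 for Klra7 and Klra8). A fit of the compared libraries alone called Klra7 only of the members, among 30 genes (0.173%). DESeq2 called 6 members (all but Klra3) among 922 genes (5.32%).

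Against CD8L tumors, no gene passed the threshold in edgeR (0.0% of all genes), though 6 members had an unadjusted p below 0.05, all lower in dNK tumors, as did 5.33% of all genes in that direction. DESeq2 called 3 members (Klra4, Klra7 and Klra8) and 0.912% of all genes. Klra8 and Klra7 had the smallest and the next smallest p of the 17320 genes, each with an edgeR adjusted p of 0.131. At equal depth, reads in CD8L tumors were 72.9 times those in dNK tumors for Klra7 (12.7 to 2915) and 59.2 times for Klra8 (10.3 to 2375), and 2.55 times for Klra2 (2.07 to 3.16). These exact intervals, too, hold counting error only.

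**Figure D3:**
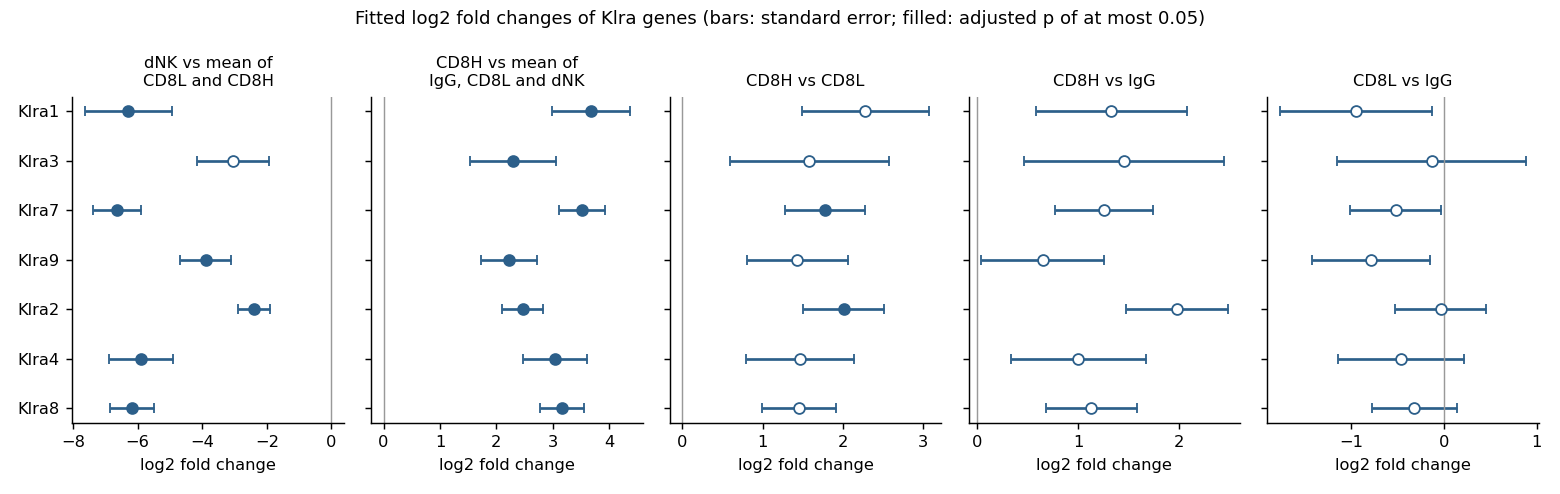
Fitted log2 fold changes with standard errors (horizontal axis, a separate scale per panel) of the 7 Klra genes in 5 comparisons, with filled points for genes called by edgeR. All points lie below 0 for dNK against the mean of CD8L and CD8H, all lie above 0 in the 3 panels with CD8H first, and 2 are filled for CD8H against CD8L and none for CD8H against IgG or CD8L against IgG.

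The CD8H tumors, which the study set against the 3 other groups, had the highest level of each of the 7 genes, and each CD8H tumor was above each of the 9 others, as it was for 10.6% of all genes. Against the mean of the dNK, CD8L and IgG groups, edgeR called all 7 genes higher, where 14.4% of all genes were. Klra1 and Klra3 could enter this test only by being high in CD8H tumors, and without a filter on low counts the 7 genes were called as well (12.8% of 33667 genes in either direction). The log2 fold change was 2.47 ± 0.36 for Klra2 (SE, adjusted p = 0.00129), 3.52 ± 0.41 for Klra7 (0.000581) and 3.16 ± 0.39 for Klra8 (0.000622). In this mean the dNK group, near 0 reads for 6 of the genes, has the same weight as each other group. With the 9 other tumors as a single group, the log2 fold change was 2.33 for Klra2, which kept its call, 2.06 for Klra7, 1.85 for Klra8 and between 1.51 and 2.30 for the rest, and those 6 lost their calls (edgeR adjusted p 0.0672 to 0.171). Klra3 also lost its call without dNK tumor 1 or 2, any one CD8H tumor or IgG tumor 2 or 3 (0.0713 to 0.108). Over all genes the fits without those tumors called 2558 to 4369 in either direction, against 4551 with all libraries.

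Between the PC blockade groups, edgeR called Klra2 and Klra7 higher in CD8H than in CD8L tumors, where 6.03% of all genes were called higher. Klra2 was 2.01 ± 0.50 higher on the log2 scale (SE, edgeR adjusted p = 0.033) and Klra7 1.77 ± 0.50 higher (0.0447). The other 5 genes had log2 fold changes of 1.43 to 2.28 with adjusted p between 0.0645 and 0.295. Each CD8H tumor was above each CD8L tumor in all 7 genes (15.6% of all genes). Of these, Klra1 and Klra3 had passed the filter on low counts only through the CD8H tumors. DESeq2 called 5 members and 24.2% of all genes, and edgeR on the compared libraries alone called no gene at all (adjusted p = 0.0591 for Klra2 and 0.110 for Klra7). Klra2 lost its call without CD8H tumor 1 or 2, CD8L tumor 1 or 2 or IgG tumor 3 (edgeR adjusted p 0.0515 to 0.125), and Klra7 lost it without any one of 9 libraries (0.0549 to 0.153), that is all but dNK tumors 1 and 2 and CD8L tumor 3. Over all genes these fits called 0 to 1530 in either direction, against 1939 with all libraries. No gene at all was called without CD8H tumor 1 or CD8L tumor 1 or 2.

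In CD8H against IgG tumors no member was called by edgeR, where 0.577% of all genes were called higher. Klra2 came nearest, at 1.98 ± 0.50 on the log2 scale (SE, adjusted p = 0.0743), and 3 members (Klra2, Klra7 and Klra8) were higher with an unadjusted p below 0.05, as were 10.7% of all genes. All CD8H tumors were above all IgG tumors in each of the 7 genes, as in 14.3% of all genes, and DESeq2 called Klra2 and Klra8 among 12.1% of all genes. Here too, Klra1 and Klra3 had passed the filter only through the CD8H tumors. Without dNK tumor 2, edgeR called Klra2 (adjusted p = 0.0265).

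No difference between CD8L and IgG tumors was detectable in any member. In edgeR no gene at all passed the threshold (0.0%), no member had an unadjusted p below 0.05, and DESeq2 called no member. The log2 differences of CD8L over IgG were between -0.95 ± 0.82 for Klra1 and -0.03 ± 0.49 for Klra2 (SE), all below 0, and the groups overlapped in every member. The sign turned when single libraries were left out for Klra2 (-0.28 to 0.39), Klra3 (-1.35 to 0.60) and Klra4 (-0.83 to 0.036), and Klra1 was between -2.88 (without CD8L tumor 1) and -0.49.

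Over the 12 tumors, the 5 genes with the profile most like that of each member were listed. Likeness was the root mean square difference of log2 CPM after each gene was centred on its own mean. Klra7 and Klra8 were nearest to each other (0.405). The next after Klra8 for Klra7 were Klre1 (0.434), a lectin-like receptor of NK cells, Ncr1 (0.506), which encodes the activating receptor NKp46, Klri2 (0.545) and Ccr9 (0.550), a chemokine receptor that also stands on the dendritic cell list. Klra4 was nearest to Klrb1c (0.423), which encodes NK1.1, followed by Ncr1 (0.455), Gm2682 (0.501), Klri2 (0.506) and Klra9 (0.554). For Klra8 the list went on with the pseudogene Klra13-ps (0.476), the chemokine gene Xcl1 (0.511), Klra14-ps (0.551), which holds most of the windows it shares, and Klrb1f (0.579).

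Klra2 lay nearest to Casp1 (0.198), an inflammatory caspase, the interferon-inducible Ifi204 (0.213) and Ifi207 (0.223), Hk3 (0.233), a hexokinase of myeloid cells, and H2-T22 (0.239). For Klra9 the list was Rnase6 (0.412), Klri2 (0.445), Gm2682 (0.453), Hsh2d (0.460) and Txk (0.483). Klra1 and Klra3 had no gene nearer than 0.515 and 0.518. They had 107 and 174 reads over all tumors, and Klra9 had 176. Nearest to Klra1 were Dnaaf3 (0.515), St14 (0.532), March1 (0.542, named from its gene ID), Mmp25 (0.544) and Aim2 (0.545), a DNA sensor of the same family as Ifi204 and Ifi207. Nearest to Klra3 were Tnfsf14 (0.518), Arl5c (0.575), Gm19684 (0.576), Gm34084 (0.585) and Klra6 (0.589). These genes are named for their profile alone, and the spread of the members themselves on this scale was 1.39 to 1.98.

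Of 20 other NK cell receptors and markers, edgeR called 18 higher when CD8H tumors were set against the average of the rest and 16 lower in dNK tumors against the mean of CD8L and CD8H, with medians of 3.36 and -4.32 on the log2 scale. Over all tested genes 14.4% were called higher and 6.99% lower in these comparisons, and the medians were 0.05 and -0.02. Klrd1 (CD94) averaged 0.300 ± 0.231 CPM in dNK tumors and 25.4 ± 14.1 CPM in CD8H tumors. Its partner Klrc1 (NKG2A) averaged 0.0999 ± 0.105 CPM in dNK tumors and 33.1 ± 19.4 CPM in CD8H tumors. Il2rb, a subunit of the receptor for IL-2 and IL-15, averaged 2.35 ± 1.79 CPM in dNK tumors and 131.0 ± 72.2 CPM in CD8H tumors. T cells also express these 3 genes. In CD8H against CD8L tumors, 9 of the 20 were called higher, where 6.03% of all genes were, with Klrd1 (3.10 ± 0.63 on the log2 scale, SE), Klrc1 (3.85 ± 0.80) and Il2rb (3.14 ± 0.67) among them. Ncr1 (1.54 ± 0.63, edgeR adjusted p = 0.128) and Eomes (1.43 ± 0.46, 0.0657) were not called. In CD8H against IgG tumors, 0 of the 20 were called higher, where 0.577% of all genes were.

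Of 7 genes through which Ly49 receptors signal, edgeR called 6 higher when CD8H tumors were set against the average of the rest and 6 lower in dNK tumors against the mean of CD8L and CD8H. Of all genes tested, 14.4% were called higher and 6.99% lower in these comparisons. Tyrobp, the adaptor of the activating members, averaged 15.0 ± 6.26 CPM in dNK tumors, 82.3 ± 18.1 in CD8H tumors, 26.2 ± 9.63 in CD8L tumors and 34.7 ± 10.4 in IgG tumors, and is also used by macrophages and microglia. In the dNK comparison it fell by 1.63 ± 0.35 on the log2 scale (SE, edgeR adjusted p = 0.0189). Hcst (DAP10) averaged 0.173 ± 0.183 CPM in dNK tumors and 4.23 ± 2.90 in CD8H tumors. The inhibitory phosphatase genes Ptpn6 (SHP-1) and Inpp5d (SHIP-1) had log2 changes of -0.89 ± 0.23 and -1.37 ± 0.19 in the dNK comparison, and the kinase genes Syk and Zap70 of -1.66 ± 0.34 and -3.07 ± 0.58, each of them called. Ptpn11 (SHP-2), which most cells express, went the other way in CD8H tumors, at -0.29 ± 0.08 on the log2 scale (edgeR adjusted p = 0.025). In that comparison 11.9% of all genes were called lower.

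The class I genes H2-D1, H2-K1 and H2-M3 and B2m, which encode ligands of Ly49 receptors and their light chain, were all called higher in the CD8H comparison and lower in the dNK comparison. The shares of all genes called so were 14.4% and 6.99%. H2-K1 averaged 117.3 ± 80.8 CPM in dNK tumors, 1767 ± 635 in CD8H tumors, 409 ± 140.4 in CD8L tumors and 548 ± 180.5 in IgG tumors. In the dNK comparison the log2 change was -2.86 ± 0.54 for H2-K1, -2.28 ± 0.48 for H2-D1, -2.40 ± 0.34 for H2-M3 and -1.91 ± 0.39 for B2m (SE, edgeR adjusted p between 0.00871 and 0.0175). In bulk tumors the cells that carry these ligands could not be told apart.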

How the data were processed

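Groups follow the labels of the samples. Counts per gene were deposited as whole numbers. The authors obtained them with featureCounts 1.5.0-p3, after alignment by STAR 2.6.1d to build GRCm38.p6 and transcript assembly in StringTie 1.3.3b. The FPKM values per gene were also deposited by the authors. For the 7 genes they exceeded counts scaled by listed length and library total by 1.00 to 1.64 times (median 1.11), unequally between genes. The strand setting and the treatment of reads that match several genes are not stated by any source used here. No exon of the 7 genes overlapped another gene in GENCODE vM21. The authors' own comparisons were made with DESeq2 1.26.0 and were not used.

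The deposited counts were fitted with edgeR 4.0.16 under R 4.3.3 (TMM scaling, filterByExpr, quasi-likelihood test) over all 12 libraries with 8 residual degrees of freedom and no covariate, and p-values were adjusted over 17320 of 54532 genes. Total counts were 16336993 to 26416214 per library. CPM used TMM-scaled totals, and log2 CPM a prior count of 2. Comparisons share libraries and are not independent. Ratios of summed reads carry exact 95% intervals, and a group at 0 was set to 3 reads. Fits were also run on simulated data in which a set of genes changed in CD8H tumors only. This does not cover levels near 0 in dNK tumors. Replicates differed by more than sampling noise.

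The members and the gene lists were chosen with earlier results of these data known. The text names all 7 members, all rows whose name starts with Klra, up to 3 genes of the NK cell list with the smallest p in CD8H against the mean of the others, all of the signaling and class I lists, and up to 5 genes per member by likeness. Alternatives were other normalization, other filters, DESeq2 1.42.0, the compared libraries alone, a single comparison group, the replicate number as a block, and leaving out each library.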

Additional observations from a re-analysis of the deposited data

How the results depend on the processing

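The count of Klra genes called was recomputed under each alternative, and every alternative that moved it by more than 1.5 times is given here. In dNK against IgG tumors, 2 genes were called, and this became 0 on library totals without TMM, 6 with DESeq2 and 1 in a fit of the compared libraries only (over all genes 3 calls, against 0, 922 and 30). In dNK against CD8L tumors, 0 became 3 with DESeq2 (all genes 0, against 158). In CD8H against IgG tumors, 0 became 2 with DESeq2 and 1 with the replicate number as a block (Klra2, log2 fold change 2.07, edgeR adjusted p = 0.0276), while calls over all genes were 129, against 2088 and 888. In CD8H against CD8L tumors, 2 became 5 with DESeq2, 1 without a filter on low counts and 0 in the compared libraries only (all genes 1939, against 4199, 1507 and 0). In CD8H against the mean of the others, 7 became 1 with the 9 other tumors as a single group (all genes 4551, against 4105). The cause of these shifts was not tested. Leaving out each library gave 0 to 3 calls in dNK against IgG, 0 to 0 in dNK against CD8L, 6 to 7 in dNK against CD8H, 4 to 7 in dNK against the mean of CD8L and CD8H, 0 to 1 in CD8H against IgG, 0 to 3 in CD8H against CD8L, 0 to 0 in CD8L against IgG and 6 to 7 in CD8H against the mean of the others. In dNK against IgG, the fits that called no member called no gene at all. In CD8H against CD8L, no gene was called without CD8H tumor 1 or CD8L tumor 1 or 2.

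The sign changed only in CD8L against IgG, where no gene was called. Over the fits that left out a library, the log2 fold change was -0.83 to 0.036 for Klra4, turning without CD8L tumor 2, and -1.35 to 0.60 for Klra3, turning without CD8L tumor 2 (0.42) or 3 (0.0019) or IgG tumor 1 (0.60). For Klra2 it was -0.28 to 0.39, turning without CD8L tumor 2 (0.030) or 3 (0.073) or IgG tumor 1 (0.39), and it was 0.048 with the replicate block. The replicate numbers were not taken to pair the tumors. Deviations from the group means of libraries with the same number correlated between -0.36 and 0.73 (mean 0.23, over 0.1 in 11 of 18 pairs), against a mean of -0.12 and 8 of 36 pairs over 0.1 for other numbers, and 4 of 12 libraries correlated best with their own number in all 3 other groups. The block moved no other count by more than 1.5 times. With 0 to 6 reads per gene in the dNK group for 6 of the genes, depth limits how low their level there can be put.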

Other observations

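The table holds 7 further Klra rows, all on chromosome 6. Klra17 had 5 reads over the dNK tumors, 82 over the CD8H tumors, 16 over the CD8L tumors and 26 over the IgG tumors, and Klra6 had 2 reads in dNK, 53 in CD8H, 17 in CD8L and 15 in IgG tumors. Both were called higher by edgeR in CD8H against the mean of the others, where 14.4% of all genes were. Their log2 fold changes were 2.54 ± 0.38 (edgeR adjusted p = 0.0014) and 2.57 ± 0.65 (edgeR adjusted p = 0.0158). Both rows, and Klra14-ps below, passed the filter on low counts only through the CD8H tumors, with 1 of the 9 other tumors at its level, and without a filter the calls of Klra17 and Klra6 stood (edgeR adjusted p = 0.00146 and 0.0179). Klra17 alone of these rows was called higher in CD8H than in CD8L tumors (2.31 ± 0.52, edgeR adjusted p = 0.0248, and 0.0431 without a filter). In that comparison 6.03% of all genes were called higher.

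The pseudogenes Klra13-ps and Klra14-ps carried as many reads as some of the receptors. Klra13-ps had 2 reads in dNK, 192 in CD8H, 44 in CD8L and 99 in IgG tumors, and Klra14-ps had 0 in dNK, 62 in CD8H, 22 in CD8L and 33 in IgG tumors. Both were called lower by edgeR in dNK tumors against the mean of CD8L and CD8H (adjusted p = 0.0115 and 0.00993), where 6.99% of all genes were. Without a filter on low counts both calls stood (edgeR adjusted p = 0.00338 and 0.00309). Both also share sequence windows with a receptor gene (Klra7 and Klra8), and how many of their reads came from those genes was not tested.

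Klra5, Klra10 and Klra11-ps did not pass the filter on low counts. Klra10 had 23 of its 26 reads in CD8H tumors, 2 in CD8L tumors and 1 in IgG tumors, and Klra5 had 15 of its 31 reads in CD8H tumors, 10 in CD8L tumors and 6 in IgG tumors. Neither had a read in a dNK tumor.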
